A study of Mus musculus with 2 samples.

Results

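The Mir23, Mir27 and Mir24 genes of the mouse stand in 2 paralogous clusters. Mir23a, Mir27a and Mir24-2 form the cluster on chromosome 8, and Mir23b, Mir27b and Mir24-1 form the cluster on chromosome 13. These 6 genes were chosen by name and matched by Ensembl identifier to the 1973 microRNA (miRNA) genes of the count files. A row was found for 5 of the 6, and the counts of Mir24-1 were not analysed here. The counts came from small RNA sequencing of the neural tube, the embryonic forerunner of brain and spinal cord, from healthy B6NCrl mouse embryos at embryonic day 11.5. All samples belonged to 1 group of 2 libraries, with 109 embryos pooled for replicate 1 and 88 for replicate 2, males and females together. RNA shorter than 30 nt was sequenced. With 1 group, the comparisons are between genes within the group and between its 2 libraries.

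A miRNA is cut from a hairpin in a longer primary transcript, and the hairpins of a cluster are commonly cut from the same primary transcript. Each hairpin can give a mature miRNA from its 5′ side (5p arm) and one from its 3′ side (3p arm). The seed, bases 2 to 8 counted from the 5′ end, is the main stretch that pairs with target mRNAs. The clusters are known from endothelial cells and blood vessel growth, miR-27 also from the repression of adipocyte formation and, through Pax3 in the mouse, from the onset of muscle differentiation, and miR-24 from the control of the cell cycle.

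The mature arms show which reads the 2 clusters can be told apart by, so they are printed here from RefSeq (GRCm38.p6), 5′ to 3′, with the seed in capitals. The table held all 6 hairpins and 11 entries for mature arms of the members. The 3p arms are the products for which these families are best known.
miR-23a-3p: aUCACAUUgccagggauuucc
miR-27a-3p: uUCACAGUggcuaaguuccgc
miR-27b-3p: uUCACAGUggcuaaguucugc
miR-24-3p: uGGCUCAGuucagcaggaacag
miR-24-2-5p: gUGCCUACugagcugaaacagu
miR-24-1-5p: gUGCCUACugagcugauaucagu

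The paralogous 3p arms of the Mir27 and Mir24 genes were close to identical or identical. miR-27a-3p and miR-27b-3p differed by the single substitution C19U, with miR-27a-3p given first and positions counted from its 5′ end, so that their first 18 bases and their seed UCACAGU were the same. The first 18 bases of miR-23a-3p, seed included, also stood in the Mir23b hairpin, whose own 3p arm is miR-23b-3p. That arm was missing from the RefSeq entries used, so it was not compared with miR-23a-3p. miR-24-3p was the same 22 bases in Mir24-1 and Mir24-2, and among the 1005 mouse hairpins of the table these 2 alone held it. The 5p arms of the Mir24 genes shared their first 16 bases and then diverged. The longest run shared by paralogous hairpins was 20 bases for Mir23a and Mir23b, 20 for Mir27a and Mir27b and 28 for Mir24-2 and Mir24-1. Reads with several places of mapping went to no gene, and they formed 25.2% of the reads of replicate 1 and 27.3% of those of replicate 2. A read of miR-24-3p matches both Mir24 hairpins in full, so the Mir24-2 counts are uncertain as a measure of miR-24. Reads of miR-23a-3p or of the miR-27 3p arms that end by base 18 would likewise match both paralogs. How many such reads the libraries held was not analysed here.

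The neighbouring genes bear on the counts as well, above all around the Mir24 hairpins. In the GENCODE M21 annotation of GRCm38 (mm10), Mir23a lies on the plus strand of chromosome 8 from 84208518 to 84208592, Mir27a from 84208672 to 84208758 and Mir24-2 from 84208815 to 84208921. The cluster spans 404 bases. Mir23a and Mir27a overlap no other annotated gene, and the last 2 bases of Mir24-2 overlap an exon of the long noncoding RNA gene Gm26532 on the same strand. On the plus strand of chromosome 13, Mir23b lies from 63300484 to 63300557, Mir27b from 63300712 to 63300784 and Mir24-1 from 63301208 to 63301275, a span of 792 bases. This cluster sits inside the protein-coding gene 2010111I01Rik. Mir23b was intronic in all 9 overlapping transcripts of that gene, Mir27b in 8 of 9 and Mir24-1 in 7 of 11, with an exon overlapping it in the other 4. The DNA repair gene Fancc runs over the same region on the minus strand, with an intron there. Opposite the Mir24 hairpins lie Mir3074-2 on chromosome 8 and Mir3074-1 on chromosome 13, whose 5p arm miR-3074-5p is also a single sequence common to both loci.

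**Figure D1:**
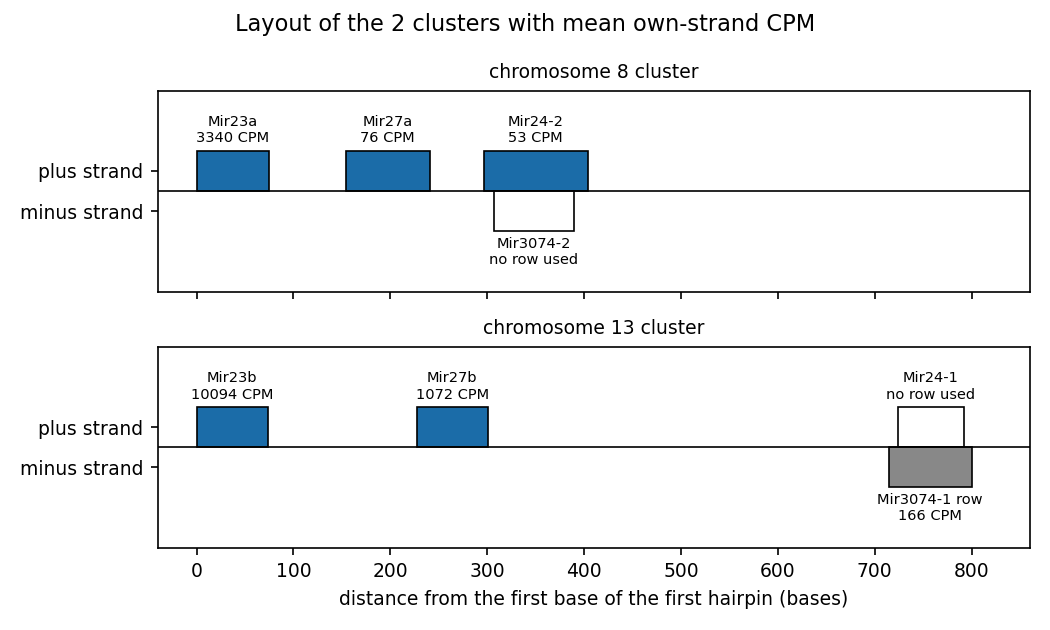
Hairpins of both clusters as boxes along the distance in bases from the first base of each cluster's first hairpin, with the plus strand above the line and the minus strand below. Filled boxes have a row of counts and carry its mean own-strand CPM, and open boxes (Mir24-1 and Mir3074-2) have none used here. Strands are those of M21.

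Mir23b was the leading gene of the clusters and Mir23a the next, so miR-23 hairpins held most of the counts. Levels are own-strand counts per 1000000 own-strand counts on miRNA genes (CPM). The own-strand total was 3708662 in replicate 1 and 4055883 in replicate 2, and a count of 0 allows up to 0.809 and 0.740 CPM. The listed arms of the members are 21 to 23 bases long and counts were not divided by length. Capture of one miRNA relative to another was not measured, and a ratio between genes is a ratio of their counts. Intervals are 95% Wilson intervals and, like the limits for 0, cover counting error only.

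Mir23a (ENSMUSG00000065611.1) had 14320 counts in replicate 1 and 11431 in replicate 2, or 3861 CPM (95% interval 3799 to 3925) and 2818 CPM (2767 to 2870). Its mean was 3340 ± 737 CPM (SD, n = 2), rank 53 of 1973 genes. Mir23b (ENSMUSG00000065599.1) had 44474 and 33245 counts, or 11992 CPM (11882 to 12103) and 8197 CPM (8109 to 8285). Its mean of 10094 ± 2684 CPM gave it rank 18. The Mir23 genes did not overlap in their range over the libraries, and the chromosome 8 copy was the lower in each.

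The Mir27 genes stood below their Mir23 neighbours on either chromosome. Mir27a (ENSMUSG00000065444.1) had 331 and 257 counts, or 89.3 CPM (80.1 to 99.4) in replicate 1 and 63.4 CPM (56.1 to 71.6) in replicate 2. Its mean was 76.3 ± 18.3 CPM (SD, n = 2), rank 221. Mir27b (ENSMUSG00000065475.1) had 4562 and 3704 counts, or 1230 CPM (1195 to 1266) and 913 CPM (884 to 943), with a mean of 1072 ± 224 CPM and rank 93. The Mir27 genes did not overlap in their range over the libraries, and the chromosome 8 copy was again the lower.

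Mir24-2 (ENSMUSG00000065541.1) was the lowest of the 5 genes measured. It had 222 counts in replicate 1 and 187 in replicate 2, or 59.9 CPM (52.5 to 68.3) and 46.1 CPM (40.0 to 53.2). Its mean was 53.0 ± 9.73 CPM (SD, n = 2), rank 240. Among the genes of the RefSeq table with a row here, 83 had an arm that another hairpin also held, as Mir24-2 does, and 49 of these reached 10 summed counts. Mir24-2 was number 30 of the 49 by mean CPM, whose median was 69.6 CPM. Of 775 genes with no such arm, 324 reached that many counts, with a median of 86.0 CPM. Genes with fewer counts enter neither median, so the medians do not show how far a shared arm lowers a count.

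**Figure D2:**
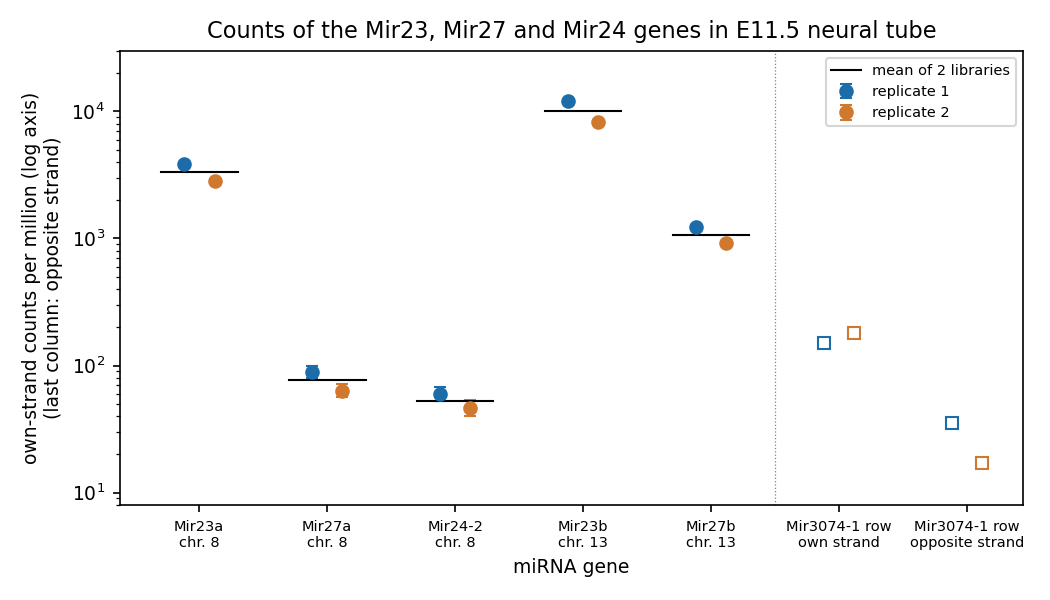
CPM (log axis) of the 5 measured members and of the Mir3074-1 row, with replicate 1 and replicate 2 as points, 95% Wilson intervals as bars and the mean of both libraries as a line for the members. Mir23b lies highest at 11992 and 8197 CPM, and Mir24-2 lowest of the members at 59.9 and 46.1 CPM.

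The order Mir23b, Mir23a, Mir27b, Mir27a, Mir24-2 held in each library, and no neighbours in that order overlapped in their range over the libraries. Against all miRNA genes, each member stood between close neighbours in level that could not be separated from it. Mir23b lay between Mir93 (10234 ± 54.6 CPM) and Mirlet7g (10021 ± 978 CPM). Mir23a lay between Mir30d (3370 ± 309 CPM) and Mir181b-2 (3247 ± 993 CPM). Mir27b lay between Mir125b-1 (1080 ± 168 CPM) and Mir34c (1067 ± 135 CPM). Mir27a lay between Mir702 (76.3 ± 3.01 CPM) and Mirlet7a-2 (74.7 ± 21.3 CPM), and Mir24-2 between Mir675 (53.8 ± 6.68 CPM) and Mir152 (51.6 ± 3.26 CPM). In every one of these 10 comparisons the ranges over the 2 libraries overlapped and the order differed between the libraries. The neighbours were picked as the genes next in mean CPM, so this overlap follows largely from the choice.

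**Figure D3:**
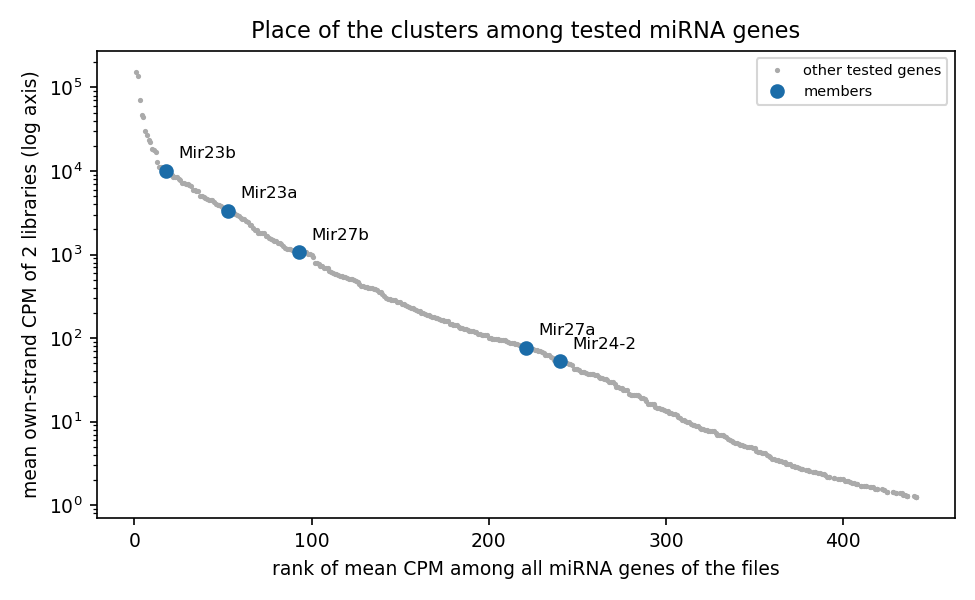
Mean own-strand CPM of both libraries (log axis) against rank for the 444 genes with at least 10 summed counts. The members, as large points, lie at ranks 18, 53, 93, 221 and 240 of 1973.

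The chromosome 13 cluster gave more counts than the chromosome 8 cluster, even with Mir24-1 left out. Mir23b and Mir27b together held 1.32% of the own-strand counts of replicate 1 (95% Wilson interval 1.31 to 1.33) and 0.911% of those of replicate 2 (0.902 to 0.920). Mir23a, Mir27a and Mir24-2 together held 0.401% (0.395 to 0.408) and 0.293% (0.288 to 0.298). The chromosome 13 sum was 3.30-fold the chromosome 8 sum in replicate 1 and 3.11-fold in replicate 2. The 5 genes held 1.46% ± 0.367 of counts (SD, n = 2), of which the Mir23 genes made up 92.0% in replicate 1 and 91.5% in replicate 2. These shares leave out Mir24-1 and any miR-24-3p reads that map to both Mir24 hairpins, so they do not give the make-up of the whole clusters.

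The 2 families differed in how uneven their paralogs were. Mir23a supplied 24.4% of the counts of the Mir23 pair in replicate 1 (95% Wilson interval 24.0 to 24.7) and 25.6% in replicate 2 (25.2 to 26.0). Mir27a supplied 6.76% of the counts of the Mir27 pair (6.09 to 7.50) and 6.49% (5.76 to 7.30). The log2 ratio of the chromosome 8 copy over the chromosome 13 copy was -1.59 ± 0.067 for Mir23 and -3.82 ± 0.046 for Mir27 (SD, n = 2). These ratios do not depend on how the libraries are scaled, and for each family the replicates differed less than the families did. The Mir23a share differed between the libraries by more than the counting intervals, and the Mir27a share did not. For Mir24-2 over Mir24-1 no ratio could be formed.

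**Figure D4:**
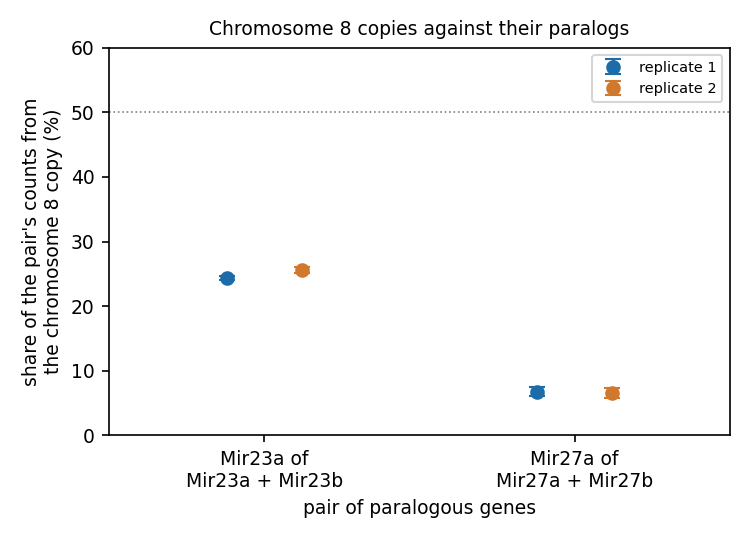
Share of each pair's counts that came from the chromosome 8 copy (percent), with replicate 1 and replicate 2 as points and 95% Wilson intervals as bars. The dotted line marks equal copies. Mir23a supplied 24.4% and 25.6%, and Mir27a 6.76% and 6.49%.

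Within a cluster, adjacent hairpins differed in counts, most for Mir23a and Mir27a and least for Mir27a and Mir24-2. The hairpins at the ends of the chromosome 8 cluster, Mir23a and Mir24-2, differed more, with ratios of 64.5 in replicate 1 and 61.1 in replicate 2. Mir23a exceeded Mir27a, which starts 79 bases after its end, with ratios of 43.3 in replicate 1 and 44.5 in replicate 2. Mir23b exceeded Mir27b, 154 bases further on, with ratios of 9.75 and 8.98. Mir24-2, 56 bases after Mir27a, had 0.671 times the counts of Mir27a in replicate 1 and 0.728 times in replicate 2. Reads that map to both Mir24 hairpins went to no gene, so the Mir24-2 counts can understate miR-24. The ratios of Mir24-2 to Mir27a and to Mir23a are therefore uncertain as a measure of how even the hairpins were. Over the whole table, 70 pairs of adjacent miRNA genes on the same strand lay fewer than 1000 bases apart with at least 10 summed counts each, and their median level ratio was 7.06-fold. Of these pairs, 14 were more uneven than Mir23a and Mir27a, 28 more than Mir23b and Mir27b, and 60 more than Mir27a and Mir24-2. The pairs share libraries and some share genes, so these counts are a description. The place of Mir27a and Mir24-2 among the pairs also carries the uncertainty of the Mir24-2 counts.

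All 5 measured members had more CPM in replicate 1 than in replicate 2, by similar folds. The split of a gene's counts between the libraries was set against the split of the library totals by an exact binomial test, two-sided, and p-values were adjusted by Benjamini-Hochberg over all 444 genes that reached 10 summed counts. The test compares 2 libraries, which belong to the same condition. It treats each read as a molecule of its own, and PCR copies would make its p-values too small. Mir23b was 1.46-fold higher in replicate 1, with an exact binomial p too small for the machine to tell from 0. Mir23a was 1.37-fold higher (exact binomial adjusted p = 7.21e-139), Mir27b 1.35-fold (exact binomial adjusted p = 1.18e-40), Mir27a 1.41-fold (exact binomial adjusted p = 9.63e-05) and Mir24-2 1.30-fold (exact binomial adjusted p = 0.0177). Of all tested genes, 45.3% passed as higher in replicate 1, 7.88% passed as higher in replicate 2 and 53.2% passed in either direction, so passing the test was common in these libraries.

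The median tested gene was itself higher in replicate 1, with a log2 ratio of 0.27, against a median of 0.45 over the 5 members, which ranged over 0.38 for Mir24-2 to 0.55 for Mir23b. Scaling by trimmed mean of M values (TMM) shifts every log2 ratio by -0.28, and DESeq2 size factors shift it by -0.23. Relative to the median gene, the members stood 0.11 (Mir24-2), 0.16 (Mir27b), 0.19 (Mir23a), 0.23 (Mir27a) and 0.28 (Mir23b) toward replicate 1. Between 48.4% of tested genes, for Mir23b, and 76.8%, for Mir24-2, lay farther from the median. With TMM scaling Mir23a, Mir23b and Mir27b stayed higher in replicate 1, while Mir27a (exact binomial adjusted p = 0.174) and Mir24-2 (exact binomial adjusted p = 0.695) did not pass. DESeq2 size factors gave the same 3 genes. Under TMM 40.1% of tested genes passed, 18.5% toward replicate 1 and 21.6% toward replicate 2. Under DESeq2 size factors 42.1% passed, 23.0% toward replicate 1 and 19.1% toward replicate 2.

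**Figure D5:**
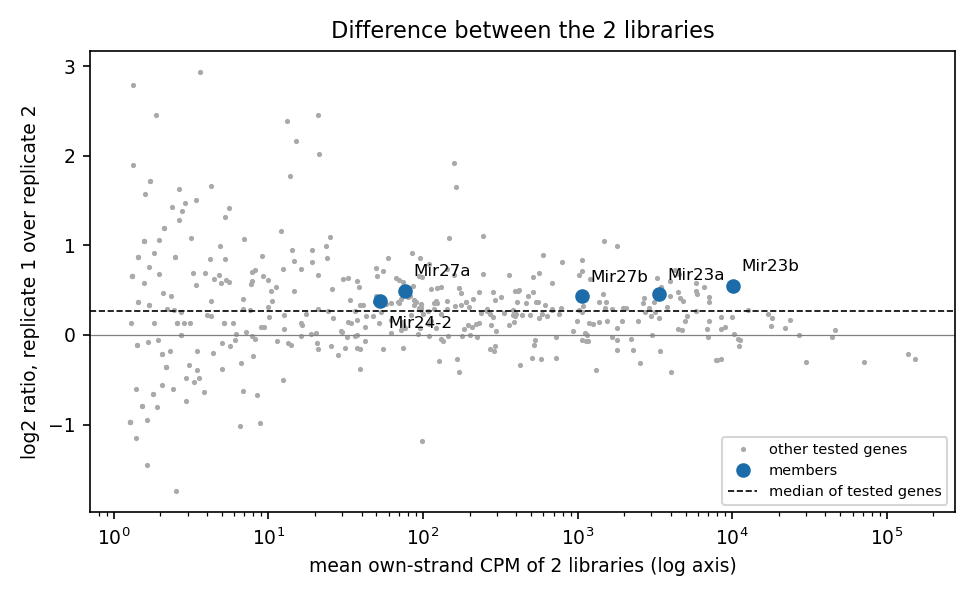
Log2 ratio of replicate 1 over replicate 2 against mean own-strand CPM (log axis) for the 444 tested genes, scaled by library totals. The members, as large points, lie at 0.38 to 0.55, above the dashed line that marks the median of tested genes at 0.27.

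Neighbours of a cluster differed between the libraries by nearly the same ratio, as did some members on different chromosomes. The log2 ratios of Mir23a and Mir27a were 0.039 apart, those of Mir27a and Mir24-2 0.12 apart and those of Mir23b and Mir27b 0.12 apart. The median distance over the 70 adjacent pairs was 0.31, and 68, 59 and 57 of the pairs were farther apart than these 3. The part of counting error in these distances was not tested. Closeness was not particular to neighbours. On different chromosomes, Mir23a had 0.45 and Mir27b 0.43, and Mir27a had 0.49 and Mir23b 0.55. Genes that are not adjacent were not compared over the whole table.

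The locus of Mir24-1 was seen only through the row of Mir3074-1 (ENSMUSG00000092741.1). That row had 559 own-strand counts in replicate 1 and 738 in replicate 2, or 151 and 182 CPM, and it was higher in replicate 2 by 1.21-fold (exact binomial adjusted p = 0.00184), the direction opposite to that of the 5 members. Its opposite strand, where M21 places Mir24-1, had 132 and 69 counts, or 35.6 and 17.0 CPM. The file gives an earlier version of this identifier than M21, as for Mir23b and Mir27b, and the strand of the earlier version is not given in the sources used here. It therefore cannot be told which of the counts belong to Mir24-1, and none were assigned to it. Opposite-strand reads made up 19.1% and 8.55% of the reads in that row. In the Mir24-2 row, where Mir3074-2 lies opposite, they were 2 and 4 counts, or 0.893% and 2.09% of the row. Mir27b had 5 and 0 opposite-strand counts, and Mir23a, Mir27a and Mir23b had 0 in both libraries.

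Other genes with the seeds of these families were low or had no counts. The seed of miR-27 also stands in miR-128-3p, a miRNA known as abundant in brain, starting at base 1 instead of base 2.
miR-128-3p: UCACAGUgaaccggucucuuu
Here the capitals mark the letters shared with the miR-27 seed. Mir128-1 had 139 CPM in replicate 1 and 80.4 CPM in replicate 2, and Mir128-2 had 84.1 and 55.0 CPM, so each lay below Mir27b and near Mir27a. miR-128-3p is identical in both of its hairpins, and its gene counts are uncertain for the same reason as those of Mir24-2. The miR-24 seed GGCUCAG was shared by Mir6413, Mir6410, Mir6369 and Mir5124b, all with 0 counts in both libraries.

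Genes of other cell types were present in these libraries of whole tissue, in which fewer cells of a type and less RNA per cell cannot be told apart. The neural list ranged widely. Mir92b, abundant in neural progenitors, had 5250 and 4708 CPM, Mir137, which acts in neuronal differentiation, had 2169 and 1761 CPM, and Mir153 had 864 and 700 CPM. Mir9-3 had 199.8 and 200.4 CPM. The mean was 10.5 CPM for the neuronal gene Mir124a-2, 2.46 for Mir124a-1, 2.31 for Mir9-2 and 1.56 for Mir124a-3. These 4 neural markers were low among the reads counted for a gene. Mir124a and Mir9 have several gene copies, and reads that map to more than 1 copy went to no gene. These counts, and the neural sum that holds them, can therefore understate the mature miRNAs. The endothelial gene Mir126a had 24945 CPM in replicate 1 and 22302 CPM in replicate 2, above every member of the clusters. The 3 endothelial genes with a row summed to 25249 and 22569 CPM, and 2 of them were higher in replicate 1 by the exact binomial test. The smooth muscle genes Mir143 and Mir145a summed to 6466 and 5359 CPM, both higher in replicate 1. The 8 skeletal and cardiac muscle genes summed to 1482 and 949 CPM, of which Mir206 alone had 1358 and 761 CPM. Of these genes 5 were tested. In the test 2 passed as higher in replicate 1 (Mir206 and Mir499), 2 as higher in replicate 2 (Mir208a and Mir208b) and 1 did not pass (Mir133b). Mir133a-1 and Mir133a-2 had 0 counts, and reads that map to both copies would have gone to no gene, so these zeros are no measure of miR-133a. The 2 erythroid genes summed to 520 and 368 CPM and the 3 leukocyte genes to 495 and 365 CPM, all 5 higher in replicate 1. The neural list of 8 genes summed to 8501 and 7385 CPM, with 3 higher in replicate 1 and 5 that did not pass. All these calls are by library totals, with which 45.3% of all tested genes passed as higher in replicate 1. Every one of the list sums was also larger in replicate 1 by library totals, as the members were. TMM and DESeq2 size factors shift every sum by the same amounts as the members. The log2 ratio of replicate 1 over replicate 2 was then 0.36 and 0.41 for the muscle sum, 0.21 and 0.26 for the erythroid sum and 0.16 and 0.21 for the leukocyte sum, beside medians of 0.17 and 0.22 over the 5 members. It was -0.12 and -0.073 for the endothelial sum, -0.014 and 0.036 for the smooth muscle sum and -0.081 and -0.032 for the neural sum. The calls depended on scaling too. With TMM, Mir126a (-0.12), Mir221 (-0.17), Mir92b and Mir9-3 passed as higher in replicate 2. Mir451a and Mir223 stayed higher in replicate 1, and the other tested genes of these lists except muscle did not pass. Of all tested genes, 18.5% passed toward replicate 1 under TMM and 21.6% toward replicate 2. The skeletal and cardiac muscle genes did not move together, and their sum mostly reflects Mir206. With TMM the log2 ratios of the muscle genes were 0.55 for Mir206, 0.54 for Mir499, -0.011 for Mir133b, -1.30 for Mir208a and -1.46 for Mir208b. Mir206 passed as higher in replicate 1, Mir208a and Mir208b passed as higher in replicate 2, and Mir499 and Mir133b did not pass. The part of these cell types in the difference of the members was not tested.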

How the data were processed

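Small RNA of 2 pools of embryonic day 11.5 mouse neural tube was sequenced. The authors deposited raw counts of reads per miRNA gene, for mm10 and GENCODE M4, per the file headers. The 3 unnamed columns were read as either strand, own strand and opposite strand, since the first was the sum of the others for every gene, and own-strand counts were used. Neither the aligner nor the counter is given in the sources used here. Rows that name no gene, 56.5% of the reads of replicate 1 and 47.0% of those of replicate 2, were left out of totals.

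Symbols and coordinates came from GENCODE M21 by gene identifier, for 1894 of 1973 genes. The members, gene lists and tests were chosen with earlier results of these data known. The comparison with adjacent pairs of genes, with genes that share an arm, and the assignment of reads at Mir3074-1 were added after these values were seen. Named genes were the 6 members, miRNA genes that overlap them or share the seed of a 3p arm, Mir128-1 and Mir128-2, the next gene above and below each member in mean CPM, and marker lists. Log2 ratios between libraries carry a pseudocount of 0.5 counts. The planned count of arm matches in the genome was not made, and arms were searched in RefSeq hairpins only. The labels name separate pools, which were taken as replicates. The exact binomial test was tested on simulated counts with counting error only and library sizes taken from unchanged genes. That setting does not cover the shift of the median gene between these libraries. Python 3.11.15, scipy 1.17.1, edgeR 4.0.16 (TMM factors) and DESeq2 1.42.0 (size factors) were used.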

Additional observations from a re-analysis of the deposited data

Results flagged for a closer look

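Reads on the opposite strand of a row were not part of the measurement, and 4 such values exceeded the 3 counts that a count of 0 allows. The Mir3074-1 row had 132 opposite-strand counts in replicate 1 and 69 in replicate 2. They lie on the strand where M21 places Mir24-1 only if the row's earlier version had the strand of M21, which is not known. The Mir24-2 row had 4 in replicate 2, on the strand of Mir3074-2. The Mir27b row had 5 in replicate 1, where M21 has an intron of Fancc and no miRNA gene. Over all miRNA genes, opposite-strand reads were 2.07% of the reads of either strand in replicate 1 and 1.66% in replicate 2.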

How the results depend on the processing

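Of 53 recomputed values other than those with a replicate left out and the counts of all genes, 39 kept their direction and call or moved by less than the spread between replicates, 10 moved further, 4 lost their call and 0 reversed. Some of the 39 had little room to move. Mir23a, Mir27a and Mir23b had 0 opposite-strand counts, so their ratios to one another stay the same with either-strand reads. TMM and DESeq2 size factors change a mean of 2 libraries little. With all reads as denominator in place of own-strand gene counts, levels in reads per 1000000 reads became 1586 for Mir23a, 36.2 for Mir27a, 25.2 for Mir24-2, 4778 for Mir23b and 509 for Mir27b. The cluster shares became 0.165% for chromosome 8, 0.529% for chromosome 13 and 0.693% for both, lower because the denominator then includes reads that name no gene. The number of members past the exact binomial test between libraries was 5 with library totals and 3 with TMM or DESeq2 size factors. Mir27a had a log2 ratio of 0.21 with TMM (exact binomial adjusted p = 0.174) and 0.26 with DESeq2 size factors (adjusted p = 0.0723), and Mir24-2 had 0.092 (adjusted p = 0.695) and 0.14 (adjusted p = 0.474). Both scalings lower every log2 ratio of replicate 1 over replicate 2 by construction. The test called 236 of 444 genes, 201 higher in replicate 1 and 35 in replicate 2. It called 178 with TMM, 82 and 96 by direction, and 187 with DESeq2 size factors, 102 and 85 by direction. It called 245 of 454 with either-strand reads, 229 of 724 without a filter and 225 of 301 with at least 100 summed counts, and the 5 members passed under the last 3. Adding the opposite-strand reads of the Mir3074-1 row to the chromosome 13 cluster gave a share of 1.119%, and adding all its reads 1.136%, against 1.117% without them. With 2 libraries, leaving one out gives the value of the other, and the result cannot move by more than the spread, so this says nothing of stability. No paired analysis was possible because there is 1 group. Depth limits Mir27a and Mir24-2 most, with 187 to 331 counts per library.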
